A study of Mus musculus with 36 samples.

Results

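The nuclear-encoded genes of the mitochondrial respiratory chain and ATP synthase are described here in single microglia of mouse brain. Members were the protein-coding genes whose GENCODE vM21 symbol belongs to the Nduf a, b, c, s or v series, the Sdh a to d genes, the Uqcr series, the Cox4 to Cox8 series or the Atp5 series. The rule uses names alone and no measured value. It found 94 annotated genes, of which 92 are among the 26348 genes of the count files. Their symbols divide them into 38 genes under complex I, 8 complex I assembly factors (Ndufaf, caught by the same name pattern) and 4 genes under complex II. Another 8 fall under complex III, 17 under complex IV and 17 under complex V. This split follows names alone, so a gene may belong elsewhere than its name says. After the filter on low counts 86 of the 92 were tested among 14892 genes. The other 6 were Ndufaf5, Ndufa4l2, Cox7b2, Cox6b2, Cox8b and Cox4i2, with mean levels between 0.1 and 1.3 CPM, the unit of counts after scaling libraries to one size.

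Respiration in the inner mitochondrial membrane passes electrons from NADH (complex I) and succinate (complex II) through complex III to complex IV, where oxygen is reduced, and the proton gradient built on the way drives ATP synthesis by complex V. Complexes I, III, IV and V combine subunits made from the mitochondrial genome with subunits made from nuclear genes, while complex II is nuclear-encoded throughout. In microglia, the resident macrophages of the brain, the balance between oxidative phosphorylation and glycolysis is known to shift with activation.

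The series profiled single microglia of male mice aged 6 months by Smart-seq2, a plate-based method with 1 sorted cell per well. APPswe/PSEN1dE9 (APP) mice carry transgenes for mutant human amyloid precursor protein and presenilin and deposit amyloid in the brain. The controls are labelled WT. Cells were released mechanically in the cold and sorted as CD11b-high, CD45-intermediate cells, with or without CD11c, the integrin encoded by Itgax. The 6 groups were WT CD11c-negative cortex (390 cells), WT CD11c-negative hippocampus (438), APP CD11c-negative cortex (454), APP CD11c-negative hippocampus (426), APP CD11c-positive cortex (587) and APP CD11c-positive hippocampus (362). No CD11c-positive WT cells are among the samples. All cells sharing animal, region and gate were pooled into 1 replicate. Each group had 4, except APP CD11c-positive hippocampus, whose 3 replicates are labelled 1-2, 2-3 and 4. The first pair may be pools that share animal 2. In such sums, fewer cells with a transcript and less transcript per cell cannot be told apart.

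Genotype was read from the library titles, because the separate genotype tag differs from the title in 17 of 36 libraries. Replicate totals ran from 1037425 to 4484427 counts, and all 14 microglial markers listed were present in every group. Their sum was lower in the CD11c-positive gate, at 14657 to 16929 against 18400 to 20874 CPM in APP cortex. In APP hippocampus it was 20974 to 22948 against 27451 to 32262 CPM. The part of this shift in the results below was not tested. Itgax levels were 85.0 to 194 CPM in APP CD11c-positive cortex and 64.2 to 83.9 CPM in APP CD11c-positive hippocampus, against 0 to 31.8 CPM in the CD11c-negative replicates, so the labelled gate matched this gene. The titles also carry a running library number. Both gates of an APP cortex animal share that number, whereas WT and APP libraries never share it and neither do the hippocampal gates. In those comparisons the library number and the group cannot be told apart.

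Genes detected per cell, after each cell was thinned to 5000 counts, moved with the gate. They averaged 836 ± 136 (SD, n = 4) in APP CD11c-positive cortex against 549 ± 91 (SD, n = 4) in APP CD11c-negative cortex, and 872 ± 135 (SD, n = 3) in APP CD11c-positive hippocampus against 622 ± 31 (SD, n = 4) in APP CD11c-negative hippocampus. WT hippocampus was the lowest, at 436 ± 38 (SD, n = 4). The CD11c-positive replicates began at 687 and the CD11c-negative ones ended at 659, without overlap. A fit with genes per cell added can therefore hardly separate it from the gate. A call lost in that fit does not show which of them it follows. Other-cell markers moved with the gate in cortex as well. Summed over 7 astrocyte markers the range was 732 to 1872 CPM in the CD11c-positive and 392 to 1115 CPM in the CD11c-negative APP cortex, over 9 neuronal markers it was 267 to 641 against 215 to 439 CPM, and over 6 oligodendrocyte markers it was 379 to 508 against 132 to 268 CPM. None of the astrocyte and neuronal markers was at 0 in either gate of cortex, and of the oligodendrocyte markers Mog was at 0 in the CD11c-negative gate. By gene, 6 of 7 astrocyte, 8 of 9 neuronal and 5 of 5 tested oligodendrocyte markers had a fitted difference above 0 and 0 passed. In APP hippocampus the 7 astrocyte markers summed to 134 to 146 CPM in the CD11c-positive and 175 to 384 CPM in the CD11c-negative gate, with Gfap, Aqp4 and Aldh1l1 at 0 in both. The 6 border macrophage markers measured summed to 54.4 to 96.9 CPM in APP CD11c-positive hippocampus and 0 to 12.1 CPM in APP CD11c-negative hippocampus, with Cbr2 and Cd163 at 0 in both. The part of these shifts in the results below was not tested, except by the alternatives named beside them.

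The promoters of respiratory chain genes are a textbook target of the transcription factor NRF1. RefSeq promoters of build GRCm38.p6, each 250 bases before to 50 bases after a gene start, were matched for 76 of the 92 members and searched on both strands for the NRF1 core GCATGCGC. It was found in 12 of 76 members (15.8%) and in 3.05% of all 27025 genes with a promoter. The 8-base core of YY1, AAGATGGC, was found in 11 of 76 members (14.5%) against 3.19% of all genes, and the ETS site CCGGAAGT in 5 of 76 (6.58%) against 4.31%. Member promoters had a median GC content of 58.3% against 52.7% over all promoters, and the NRF1 core is rich in G and C. The NRF1 sites are shown because members from complexes I to V share these letters. Each line is 30 bases on the gene's strand, written 5′ to 3′, with the match in capitals. A run of 10 capitals is the core overlapping its own reverse complement.
Ndufa6, accessory subunit of complex I, chr15:82354356-82354385, minus strand: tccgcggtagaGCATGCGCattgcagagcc
Ndufa8, accessory subunit of complex I, chr2:36049328-36049357, minus strand: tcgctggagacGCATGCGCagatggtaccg
Ndufa11, accessory subunit of complex I, chr17:56717692-56717721, plus strand: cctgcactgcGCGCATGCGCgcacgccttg
Sdhb, iron-sulphur subunit of complex II, chr4:140961206-140961235, plus strand: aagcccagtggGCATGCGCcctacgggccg
Uqcr11, small subunit of complex III, chr10:80406807-80406836, minus strand: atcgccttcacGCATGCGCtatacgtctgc
Cox6a1, subunit of complex IV, chr5:115349101-115349130, minus strand: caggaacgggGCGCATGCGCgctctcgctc
Atp5k, subunit e of complex V, chr5:108434430-108434459, minus strand: tttcactgcgGCGCATGCGCctttctggct
Atp5g2, c subunit of complex V, chr15:102671070-102671099, minus strand: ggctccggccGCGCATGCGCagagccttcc
The other members with the core were Atp5l, Ndufaf4, Ndufaf5 and Uqcrc1. Between the gates of APP cortex the median log2 fold change was 0.75 over 11 tested members with the core and 0.81 over 61 without it, and in hippocampus it was 0.86 against 0.56. A match describes letters and is no evidence of binding.

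Levels of members spanned a wide range. The highest mean level over all 23 replicates was that of Cox4i1, the ubiquitous form of complex IV subunit 4, at 460 CPM, followed by Cox7c at 420 CPM and the complex I accessory gene Ndufa7 at 380 CPM. Uqcrq, a small subunit of complex III, stood at 324 CPM, and the peripheral stalk genes Atp5j and Atp5f1 of complex V at 291 and 246 CPM. Per kilobase of exon the order changed, with Ndufa1 at 396, Atp5k at 393 and Cox7c at 371 CPM per kilobase. Complex II was the scarcest complex. Sdhb and Sdha, its iron-sulphur and flavoprotein subunits, stood at 132 and 105 CPM, and the membrane anchors Sdhd and Sdhc at 41.4 and 25.2 CPM. Ndufaf7, Ndufaf4 and Ndufaf8 led the assembly factors with 48.0, 41.9 and 38.005 CPM. A count in all 23 replicates was present for 50 of the 92 members, and 66 had a mean of at least 50 CPM.

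**Figure D1:**
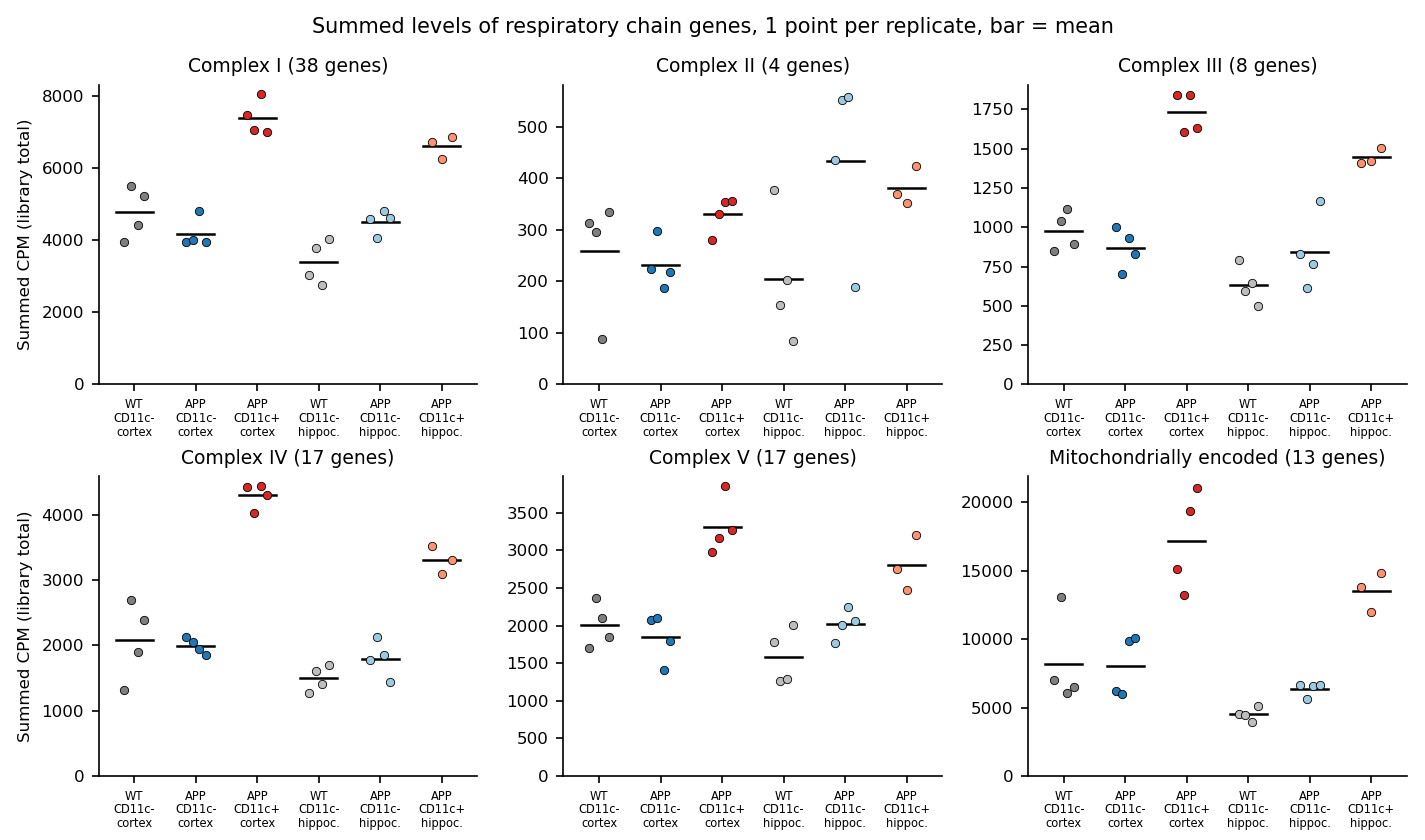
Summed CPM of each complex's nuclear genes and of the 13 mitochondrially encoded genes on the y axis, with 1 point per replicate in each of the 6 groups on the x axis and a bar at the group mean. In complexes I, III, IV and V both CD11c-positive groups lie above the CD11c-negative APP group of the same region, while complex II overlaps between gates.

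Summed over all members, the CD11c-positive microglia of APP cortex held more respiratory chain transcript than the CD11c-negative microglia of the same region, as the plot of summed levels shows. The sums were 17291, 16351, 18715 and 16740 CPM in CD11c-positive replicates 1 to 4 and 9539, 9331, 9483 and 9029 CPM in the CD11c-negative replicates of the same numbers. The groups did not overlap, and their means stood in a ratio of 1.85. Within animals, where both gates share a library number, the ratio was 1.81, 1.75, 1.97 and 1.85. Between 72 and 77 of the 92 members were higher in the CD11c-positive gate of each animal. The share of all genes with that order within each animal was not computed. In the fit over all groups, 55.2% of all genes had a difference above 0.
In hippocampus the 3 CD11c-positive sums lay between 13815 and 15573 CPM and the 4 CD11c-negative sums between 9454 and 10472 CPM, again without overlap, with a ratio of 1.51. WT cortex ranged from 8390 to 12137 CPM and WT hippocampus from 6479 to 8415 CPM.

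By complex the ratio in cortex was largest for complex IV (2.16), followed by III (2.00), V (1.80) and I (1.77), and the replicates of the gates did not overlap in any of these. The complex II sum had a ratio of 1.43 and overlapped between gates, and so did the sum of the assembly factors, whose ratio was 0.885. Hippocampus gave 1.84 for complex IV, 1.71 for III, 1.46 for I and 1.39 for V without overlap, and 0.879 for complex II with overlap. The 13 mitochondrially encoded subunit genes had ratios of 2.14 in cortex and 2.12 in hippocampus. Nuclear over mitochondrially encoded transcript therefore stood at 1.03 in CD11c-positive and 1.24 in CD11c-negative APP cortex, ranges 0.794 to 1.24 and 0.893 to 1.56, which overlap. In hippocampus it was 1.10 against 1.54, with ranges of 1.05 to 1.15 and 1.43 to 1.69 that do not overlap.

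Gene by gene, few members passed the test between the gates of APP cortex, which asks what distinguishes CD11c-positive microglia in the amyloid-bearing mouse. Of 86 members, 2 rose and 0 fell at an adjusted p under 0.05 in edgeR's quasi-likelihood test, where 1.23% of all genes passed in either direction. The fitted difference was above 0 for 78 of 86 members and for 55.2% of all genes, and the median log2 fold change was 0.85 over members and 0.19 over all genes. All 4 CD11c-positive replicates lay above all 4 CD11c-negative replicates for 38 members, and 8.84% of all genes had that order, while 1 member, the assembly factor Ndufaf7, had the opposite order, as did 3.41% of all genes. At an unadjusted p under 0.05, 27 members were higher and 0 lower, against 7.91% and 4.16% of all genes. Members stand at higher levels than most genes, with a median of 123 CPM against 15.8 CPM over all genes tested, and vary less between replicates (median biological coefficient of variation 0.686 against 1.45), so the shares are not those of genes of equal precision. The gates of 1 cortex come from the same animal, and with the animal as a replicate block, in a fit of these groups alone, 9 members rose and the median was 1.07. That fit without the block called 13, and the share of all genes called in these fits is not given here.

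**Figure D2:**
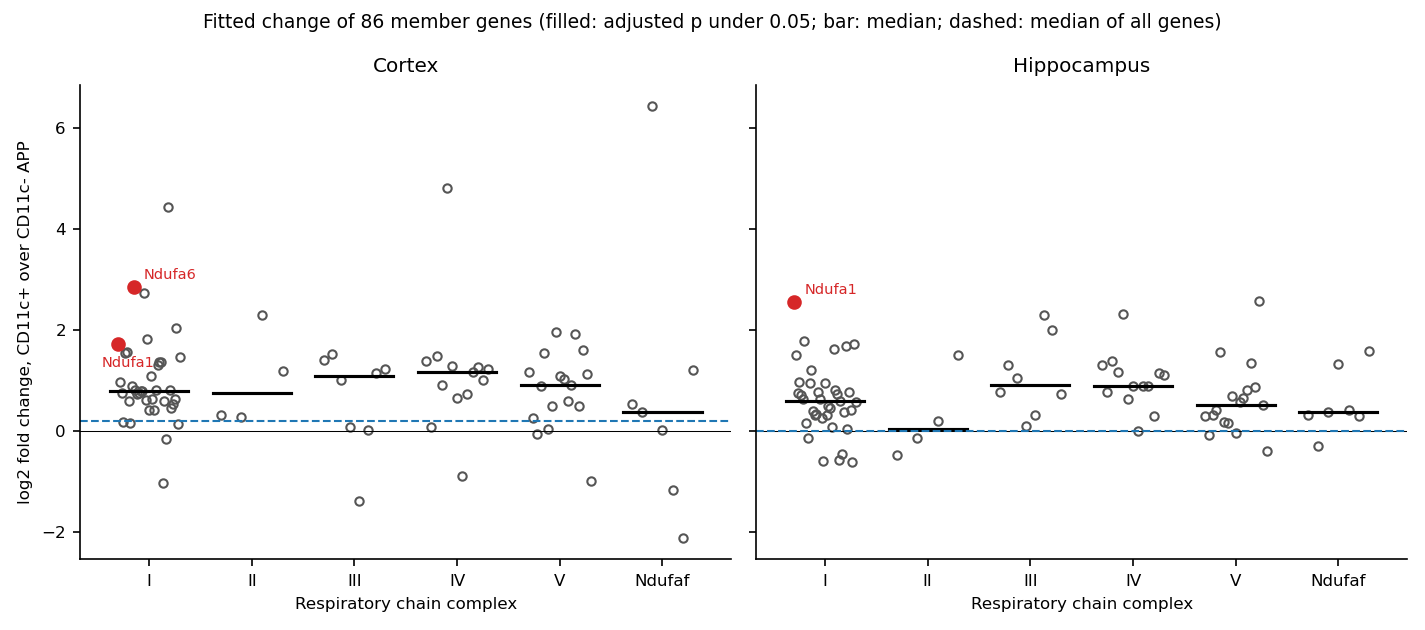
Fitted log2 fold change of each tested member (y axis) by complex (x axis), CD11c-positive over CD11c-negative APP microglia, in cortex and hippocampus. Filled points passed adjusted p 0.05, bars are medians per complex and the dashed line is the median of all genes (0.19 in cortex, 0.00 in hippocampus). The points above 4 in cortex are genes with few counts in 1 gate.

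Complex I held both genes that rose in cortex. Ndufa6, an accessory subunit of the LYR protein family on chromosome 15 (82350140 to 82354322), stood at 297, 214, 286 and 177 CPM in CD11c-positive cortex and at 8.52, 20.9, 64.5 and 42.8 CPM in CD11c-negative cortex. The lowest CD11c-positive replicate was above the highest CD11c-negative one. Its log2 fold change was 2.84 ± 0.60 (SE; edgeR adjusted p = 0.0121). The call was lost without CD11c-negative replicate 1 (adjusted p = 0.0619), CD11c-negative replicate 2 (0.0764) or CD11c-positive replicate 1 (0.0512), and with genes per cell added to the fit (0.309).

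Ndufa1, a small membrane subunit needed for complex I assembly, lies on the X chromosome (37187588 to 37191163). It measured 450, 281, 364 and 356 CPM in the CD11c-positive and 78.9, 130, 149 and 80.5 CPM in the CD11c-negative cortex. No replicate of one gate reached the other, and the log2 fold change was 1.73 ± 0.43 (SE; adjusted p = 0.0425). Every one of the 8 fits that left out a replicate lost this call, with adjusted p between 0.0635 and 0.23, and so did the fits with genes per cell added (0.357), without cells rich in other-cell markers (0.111) and with no gene filter (0.169). Its fold change in those fits stayed between 1.49 and 2.16.

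Ndufa7, an accessory subunit, was higher in each CD11c-positive cortex replicate without passing the test, at 465, 657, 566 and 551 CPM against 358, 289, 384 and 249 CPM. The complex I median was 0.79 over 37 tested genes, 35 of them above 0 and 17 with replicates that did not overlap. The 7 nuclear core subunits, which carry the flavin and iron-sulphur clusters, had a lower median of 0.53, with 5 above 0. Among them Ndufs1, the largest core subunit, measured 103, 62.0, 85.7 and 44.5 CPM in CD11c-positive and 59.9, 227, 180 and 140 CPM in CD11c-negative cortex. These ranges overlap, and its fold change of -1.04 did not pass.

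Complex III had a median of 1.08 over 8 genes and complex IV of 1.17 over 13, with 3 and 11 members respectively whose replicates did not overlap. Uqcrq, which binds next to cytochrome b, stood at 646, 565, 549 and 674 CPM in CD11c-positive and 337, 201, 330 and 172 CPM in CD11c-negative cortex. Cox4i1, on which complex IV assembly depends, gave 969, 874, 894 and 922 CPM against 418, 288, 386 and 311 CPM. Both sets stood apart, but the fits gave 1.23 ± 0.36 (SE; adjusted p = 0.124) for Uqcrq and 1.38 ± 0.38 (SE; adjusted p = 0.0789) for Cox4i1. Cox7c, a small subunit of complex IV, was at 654, 767, 682 and 697 against 352, 498, 275 and 267 CPM, and Cox7a2 at 392, 391, 402 and 427 against 236, 258, 260 and 226 CPM. Neither gene's replicates overlapped between the gates.

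Complex V had a median of 0.91 over 17 genes, 15 of them above 0. Atp5k, subunit e, which joins ATP synthase into dimers, gave 593, 605, 565 and 617 CPM in CD11c-positive and 73.5, 182, 221 and 157 CPM in CD11c-negative cortex, with a log2 fold change of 1.91 ± 0.52 (SE; adjusted p = 0.0798). Its groups were far apart, while Atp5f1, the peripheral stalk subunit b, was at 210, 273, 317 and 184 against 354, 268, 108 and 236 CPM and overlapped fully. Complex II had a median of 0.75, with all 4 genes above 0 and none past the threshold. Sdhd, a membrane anchor, stood at 65.1, 53.5, 79.4 and 79.3 CPM in CD11c-positive and 22.7, 39.1, 16.2 and 43.8 CPM in CD11c-negative cortex, with no overlap, and had a log2 fold change of 1.19 (adjusted p = 0.747). Sdhc, the other anchor, was at 10.04, 25.4, 23.1 and 47.3 against 0, 0.240, 0 and 22.4 CPM, with overlap. Sdhb stood at 150, 107, 140 and 127 CPM in CD11c-positive and 132, 244, 51.4 and 6.11 CPM in CD11c-negative cortex, and Sdha at 68.4, 158, 123 and 134 against 76.99, 31.9, 120 and 159 CPM, each with overlap.

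**Figure D3:**
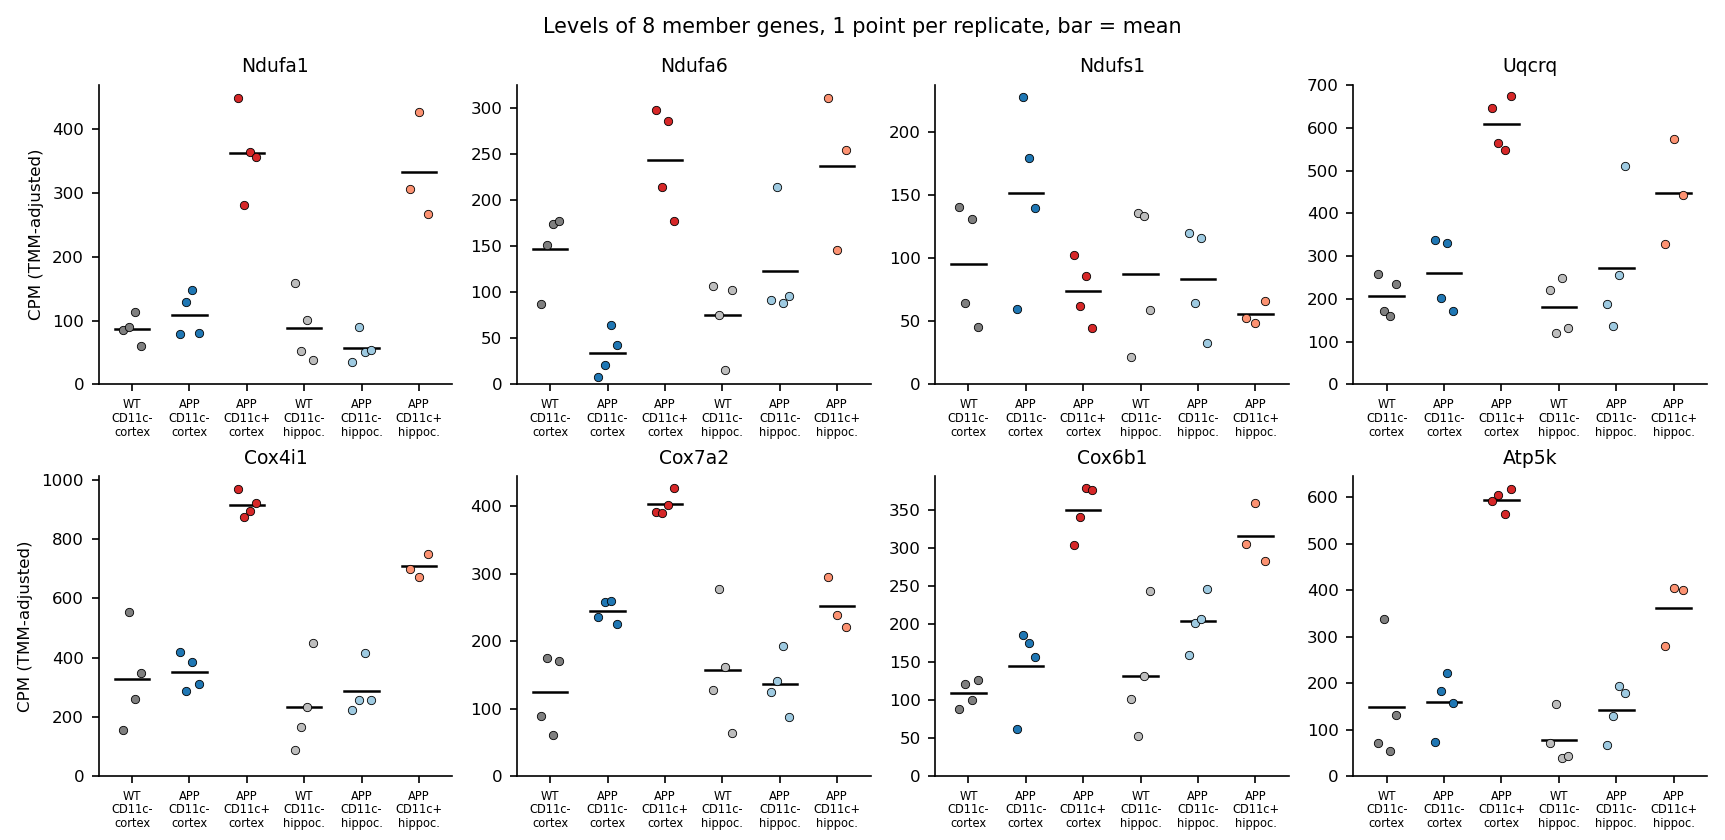
Level in CPM (y axis, from 0) of 8 members, with 1 point per replicate in the 6 groups (x axis) and a bar at the mean. For Ndufa1, Cox4i1 and Atp5k both CD11c-positive groups lie above the CD11c-negative APP group of their region, while Ndufs1 shows overlapping replicates in cortex.

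The same contrast in APP hippocampus compares 3 CD11c-positive with 4 CD11c-negative replicates. In edgeR 1 member rose and 0 fell, where 0.551% of all genes passed in either direction. The fitted difference was above 0 for 74 of 86 members against 47.6% of all genes, with a median of 0.63 over members and 0.00 over all genes. Replicates did not overlap for 20 members that were higher and 1 that was lower, against 7.94% and 3.2% of all genes. The gene that rose was Ndufa1, at 307, 427 and 268 CPM in CD11c-positive and 35.7, 89.5, 50.2 and 54.0 CPM in CD11c-negative hippocampus. Its groups did not overlap and its log2 fold change was 2.54 ± 0.46 (SE; adjusted p = 0.0056). The call was lost without CD11c-negative replicate 1 (adjusted p = 0.0535), without the pool 2-3 (0.0768) and without cells rich in other-cell markers (0.106). That last removal took only 2 CD11c-positive and 1 CD11c-negative cell from this comparison, while all 6 groups share the fit. Why the adjusted p moved was not tested. Genes per cell, added to the fit, gave an adjusted p of 0.05004.

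Ndufa6 overlapped in hippocampus, with 310, 146 and 254 CPM in the CD11c-positive and 91.9, 214, 88.8 and 95.7 CPM in the CD11c-negative gate. Cox4i1 did not, at 699, 673 and 750 against 222, 255, 416 and 258 CPM (log2 fold change 1.30 ± 0.40, SE; adjusted p = 0.189). Nor did Cox7c, at 610, 617 and 430 against 260, 302, 188 and 245 CPM (1.15 ± 0.33, SE; adjusted p = 0.132). Atp5k stood at 281, 406 and 400 against 66.1, 129, 194 and 179 CPM, again apart, and Ndufa7 at 417, 737 and 442 against 270, 156, 290 and 213 CPM, also apart. Uqcrq overlapped through one CD11c-negative replicate at 510 CPM, the other 3 being 187, 136 and 255 CPM against 329, 574 and 444 CPM.
The member with the opposite order was Ndufs3, a core subunit, with 135, 156 and 137 CPM in the CD11c-positive and 172, 168, 233 and 215 CPM in the CD11c-negative gate. Medians were 0.59 for complex I, 0.90 for III, 0.89 for IV, 0.51 for V and 0.03 for II. Whether the gate difference itself differed between regions was tested by an interaction term. In edgeR it passed for 0 of 86 members and 0% of all genes, with 1 member above and 3 below at an unadjusted p under 0.05, against 3.85% and 3.65% of all genes. DESeq2 called 0 members and 248 genes.

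Against WT microglia of the same region, which were all CD11c-negative, the CD11c-positive APP cells had member differences above 0 for 68 of 86 members in cortex and 70 of 86 in hippocampus, against 54.9% and 51.5% of all genes. These comparisons share the CD11c-positive samples with the ones above, so their values stand beside each other and are not independent. In cortex 4 members rose and 0 fell, where 1.07% of all genes passed in either direction, and 27 members had no overlap in the higher direction against 7.93% of all genes. The 4 were Ndufa1 (log2 fold change 2.05 ± 0.43, SE; adjusted p = 0.0145), Cox7a2 (1.70 ± 0.39, SE; adjusted p = 0.0287), Uqcrq (1.56 ± 0.36, SE; adjusted p = 0.0292) and Cox6b1 (1.68 ± 0.39, SE; adjusted p = 0.0299).
WT cortex held 85.0, 90.2, 114 and 60.9 CPM of Ndufa1 and 89.2, 174, 61.5 and 171 CPM of Cox7a2. For Uqcrq it held 258, 172, 160 and 235 CPM. Cox6b1, the subunit on the outer face of complex IV, was at 88.7, 121, 101 and 127 CPM in WT cortex and at 304, 340, 378 and 376 CPM in CD11c-positive cortex. Each of the 4 genes was lower in every WT replicate than in any CD11c-positive replicate. Of the 8 fits that left out a replicate, 4 kept the call of Ndufa1 and 2 that of Cox7a2, while those of Uqcrq (adjusted p 0.0524 to 0.131) and Cox6b1 (0.0649 to 0.118) were lost in all 8. With RLE scaling the calls of Cox7a2 and Cox6b1 were lost (0.0582 and 0.0661), and with genes per cell added to the fit all 4 were lost. Genes per cell did not overlap between these groups, so that fit can hardly tell it apart from the group. With no gene filter Ndufa1 (0.0506), Cox7a2 (0.0973) and Cox6b1 (0.127) missed the threshold, as did Ndufa1 and Cox6b1 without marker-rich cells (0.0613 each) and Cox7a2 in the fit of these groups alone with a replicate block (0.0891). Between WT and APP that block joins different animals by replicate number alone.

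In hippocampus 4 members rose against WT and 0 fell, where 2.07% of all genes passed in either direction, and 24 members had no overlap in the higher direction against 10.7% of all genes. The median over members was 1.01 against 0.06 over all genes. Besides Sdhd, described further on, these were Ndufa1 (log2 fold change 1.92 ± 0.45, SE; adjusted p = 0.0217), Atp5k (2.24 ± 0.55, SE; adjusted p = 0.0292) and Cox4i1 (1.601 ± 0.40, SE; adjusted p = 0.0317). WT hippocampus held 159, 53.0, 101 and 38.4 CPM of Ndufa1, 70.4, 155, 37.7 and 43.0 CPM of Atp5k, and 86.8, 164, 233 and 450 CPM of Cox4i1. None of these values reached the CD11c-positive replicates. Of the 7 fits that left out a replicate, 1 kept the call for each of the 3 genes, with adjusted p up to 0.159. The fit of these groups alone lost all 3 calls, and so did genes per cell as a covariate. Ndufa1 also missed the threshold with no gene filter (0.0628) and without marker-rich cells (0.166), Atp5k without marker-rich cells (0.0715) and Cox4i1 with RLE scaling (0.0629). The marker cut took 2 CD11c-positive and 11 WT cells from this comparison, and all 6 groups share that fit.

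The genotype comparison within CD11c-negative cells asks what the transgenes change in cells outside the CD11c gate. In cortex 0 members passed in edgeR, as did 0% of all genes, with 2 members higher and 5 lower at an unadjusted p under 0.05, against 4.57% and 4.53% of all genes. DESeq2 called 2 members lower and 245 genes. The median was -0.09 over members and 0.00 over all genes, and the summed levels of APP and WT cortex overlapped. Ndufa6 was lower in every APP replicate, WT cortex holding 87.0, 151, 174 and 177 CPM, and its log2 fold change of -2.11 ± 0.58 (SE) had an unadjusted p of 0.0013 and an adjusted p of 0.519. Cox7a2 was higher in every APP replicate, with 0.98 ± 0.39 (SE; adjusted p = 0.519). With groups taken from the genotype tag both differences changed sign, to 0.52 for Ndufa6 and -0.09 for Cox7a2 (edgeR adjusted p = 0.9999 for each). In hippocampus 1 member, Sdhd, rose and 0 fell, where 1.52% of all genes passed, and the median was 0.14 over members. The low-count filter removed Sdhd from the fits of these 2 groups alone and from the fit by genotype tag, so it was not tested there and 0 members passed. The summed level of all members was 1.31 times as high in APP as in WT hippocampus, with no overlap, beside 622 against 436 genes detected per cell.

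Between regions, hippocampus minus cortex, WT microglia had 1 member that fell and 0 that rose, where 1.63% of all genes passed in either direction. The median was -0.32 over members and -0.22 over all genes, with 24 of 86 members above 0 against 41.4% of all genes. APP CD11c-negative cells had 0 members past the threshold against 2.29% of all genes, with 3 higher and 6 lower at an unadjusted p under 0.05 (4.98% and 13.6% of all genes). DESeq2 called 5 members, and its share of all genes is not given here. Ndufv2, a core iron-sulphur subunit, was nearest in that contrast. It stood at 91.4, 54.3, 66.0 and 63.8 CPM in hippocampus and 150, 199, 201 and 191 CPM in cortex, and its log2 fold change was -1.42 ± 0.43 (SE; adjusted p = 0.0851). Its replicates did not overlap.
APP CD11c-positive cells also had 0 members past the threshold, where 0.222% of all genes passed, with 0 higher and 2 lower at an unadjusted p under 0.05 (1.55% and 9.7% of all genes). DESeq2 called 2 members, again without a share of all genes. In these CD11c-positive cells, 15 members were lower in every hippocampal replicate and 0 were higher, against 9.93% and 3.74% of all genes, and 6 of the 15 belonged to complex IV. The summed level was 0.857 times that of cortex, without overlap. The regions never share a library number, and markers of other cells moved with region: 9 neuronal markers summed to 85.0 to 654 CPM in WT cortex and 0 to 61.5 CPM in WT hippocampus, with Gad1, Rbfox3 and Stmn2 at 0 in the latter. Their part in the region differences was not tested. With RLE scaling the median of all genes moved from -0.22 to -0.34 between WT regions and from 0.01 to 0.14 between genotypes in hippocampus.

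Sdhd, which anchors complex II in the membrane, was close to absent from WT hippocampus. It lies on chromosome 9 (50596357 to 50603812). The 4 WT hippocampal replicates held 0.563, 0, 0 and 0 CPM, which is 2 counts among 10251197, found in 2 of 438 cells (0.457%; exact 95% interval 0.0553 to 1.64%). Every other group had more cells with a count, from 14 of 454 in APP CD11c-negative cortex (3.08%; 1.70 to 5.12%) to 54 of 362 in APP CD11c-positive hippocampus (14.9%; 11.4 to 19.0%). Levels were 26.4, 1.33, 33.7 and 35.2 CPM in APP CD11c-negative hippocampus, 100, 30.3 and 75.7 CPM in APP CD11c-positive hippocampus and 64.9, 112, 15.0 and 57.9 CPM in WT cortex. None of these 3 groups overlapped WT hippocampus.
The ratio of summed counts per total to WT hippocampus was 151 for APP CD11c-negative hippocampus (exact 95% counting interval 41.4 to 1253), 374 for APP CD11c-positive hippocampus (103 to 3091) and 323 for WT cortex (88.9 to 2670). These intervals treat each count as independent, whereas the 623 counts of WT cortex lay in 16 cells. They may therefore be too narrow, and they cover no spread between animals. The edgeR adjusted p was 0.0016, 0.0004 and 0.0026, and that of the genotype by region interaction was 0.0048, the only member past the threshold of that term, which 1.01% of all genes passed. Each of these calls held in every fit that left out a replicate. The fit of the compared groups alone lost the call against WT hippocampus for APP CD11c-positive cells (0.0566), for region (0.0686, and 0.341 with a replicate block) and for the interaction (0.055). Genes per cell as a covariate lost the first (0.43) and the interaction (0.121). For APP CD11c-negative against WT hippocampus the gene was not tested in the fit of the compared groups alone, and for none of the 4 comparisons in the fits on cells with a count, because the low-count filter removed it.

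Sdhd is transcribed away from Timm8b, an import chaperone gene of the mitochondrial intermembrane space on the opposite strand, and their 5′ ends lie 98 bases apart. Timm8b was chosen after its values were seen. It was also low in WT hippocampus, with 6.48, 0, 0 and 0 CPM against 64.1, 52.7, 67.8 and 56.1 CPM in WT cortex, and its region difference had an adjusted p of 0.0874. In APP CD11c-negative hippocampus it stood at 69.0, 28.5, 19.5 and 0 CPM, which overlaps WT. Few cells held both transcripts, at most 4 of the 42 Sdhd-positive cells (9.52%) of APP CD11c-positive cortex. Timm8b was as rare in cells without Sdhd, at 37 of 545 (6.79%) in that group. In WT cortex it was in 1 of 16 Sdhd-positive cells and 14 of 374 others. APP CD11c-positive hippocampus had 1 of 54 and 9 of 308, and the remaining groups had no cell with both. Of the other complex II genes, WT hippocampus held 180, 88.8, 71.2 and 0 CPM of Sdha, 232, 66.4, 104 and 83.0 CPM of Sdhb and 9.58, 0.558, 62.0 and 0.512 CPM of Sdhc. WT cortex held 57.9, 101, 0.788 and 139 CPM of Sdha, 186, 74.5, 36.6 and 86.5 CPM of Sdhb and 16.5, 7.41, 28.8 and 36.0 CPM of Sdhc, so each overlapped between the regions. Head-to-head genes within 1000 bases occur for 32 of the 92 members, Ndufa1 with Rnf113a1 and Uqcrq with Gdf9 among them.

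**Figure D4:**
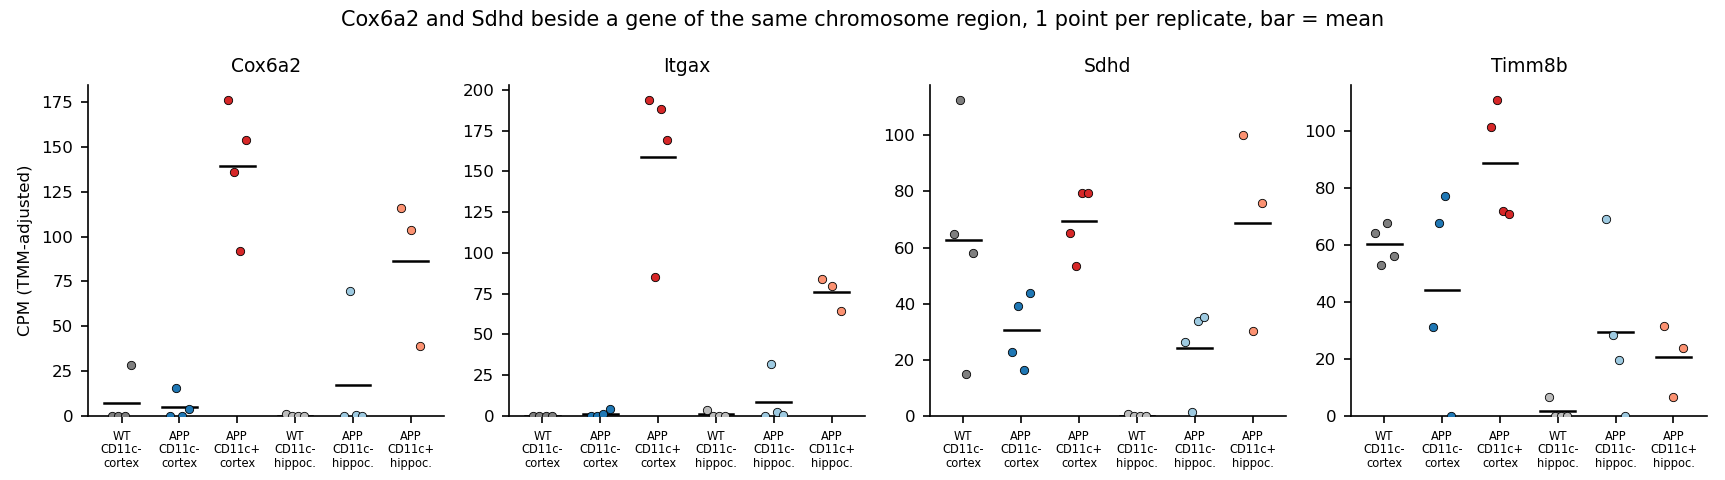
Level in CPM (y axis, from 0) of Cox6a2, Itgax, Sdhd and Timm8b, with 1 point per replicate in the 6 groups (x axis) and a bar at the mean. Cox6a2 and Itgax are near 0 in most CD11c-negative replicates, and Sdhd and Timm8b are near 0 in WT hippocampus.

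Several subunits are encoded by alternative genes, and 1 form dominated in most families. Cox4i1 stood at 460 CPM against 0.1 for Cox4i2, Cox6b1 at 204 against 0.6 for the testis form Cox6b2, Cox7b at 131 against 0.8 for Cox7b2, Cox8a at 175 against 0.3 for Cox8b, and Ndufa4 at 221 against 0.1 for Ndufa4l2. The muscle form Cox7a1 stood at 6.0 CPM, against 218 for Cox7a2 and 251 for Cox7a2l. The 3 genes of the ATP synthase c subunit were all present, Atp5g1 at 147, Atp5g3 at 49.3 and Atp5g2 at 24.3 CPM.

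Cox6a1 is the ubiquitous form and Cox6a2 the form of heart and skeletal muscle. Their coding sequences in GENCODE vM21 were identical at 56.1% of aligned bases, and 3.3% of the 50-base words of Cox6a2 occur in another gene, in Itgad, while 9.16% of those of Cox6a1 do. The last 60 coding bases before the stop codon are shown to let the 2 forms be compared. Capitals mark the 19 positions that differ.
Cox6a1, bases 277 to 336 of 339: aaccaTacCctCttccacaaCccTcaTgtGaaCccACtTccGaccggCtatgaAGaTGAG
Cox6a2, bases 232 to 291 of 294: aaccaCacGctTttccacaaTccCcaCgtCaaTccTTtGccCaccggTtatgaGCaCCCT
Cox6a2 measured 176, 136, 92.0 and 154 CPM in CD11c-positive and 0, 15.4, 0 and 4.08 CPM in CD11c-negative APP cortex. In hippocampus it measured 116, 104 and 39.2 CPM against 0, 69.6, 0.507 and 0 CPM. WT cortex held 0, 0, 0 and 28.6 CPM, and WT hippocampus 0.845, 0, 0 and 0 CPM. The cortical gates did not overlap, whereas the hippocampal gates did through 1 CD11c-negative replicate. The log2 fold change in cortex was 4.81 ± 2.08 (SE) with an adjusted p of 0.349, so it did not pass. Against WT hippocampus the summed counts of CD11c-positive hippocampus stood at 899 to 3, a ratio of 338 (exact 95% counting interval 115 to 1643), with an edgeR adjusted p of 0.0999. Those 899 counts lay in 44 cells, so this interval may also be too narrow.
By cells, Cox6a2 was seen in 74 of 587 (12.6%) from the positive gate of APP cortex and 4 of 454 (0.881%) from the negative one, and in 44 of 362 (12.2%) and 3 of 426 (0.704%) of APP hippocampus. The WT shares were 2 of 390 (0.513%) and 3 of 438 (0.685%). Thinned to 5000 counts, the cortical shares were 10.5% and 0.227% and the hippocampal ones 7.93% and 0.244%. Cox6a1, by contrast, stood at 354, 315, 403 and 407 CPM in CD11c-positive and 191, 154, 269 and 174 CPM in CD11c-negative APP cortex, also without overlap.

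Cox6a2 lies on chromosome 7 (128205435 to 128206387), 54777 bases beyond Itgax, the gene whose protein defined the gate, and all 953 bases of it fall inside the integrin gene Itgad on the opposite strand. The submitters' counting is not stated to use strand. Itgad itself was at 0 CPM in all replicates but 1, where it was 0.218 CPM. These neighbours were chosen after the values were seen. Itgax had a count in 18 of 74 Cox6a2-positive cells (24.3%) and 83 of 513 others (16.2%) of CD11c-positive cortex, and in 5 of 44 (11.4%) and 42 of 318 (13.2%) of CD11c-positive hippocampus. Itgam, the CD11b gene of the same region, ranged from 164 to 643 CPM over all 23 replicates.

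Other genes of energy metabolism were taken from lists chosen with earlier results of these data known. Between the gates of APP cortex and hippocampus, 0 and 0 of 41 cytochrome c and assembly genes passed, with a median of 0.05 in each. Nor did any of 18 genes of the tricarboxylic acid cycle (medians 0.02 and -0.28), 13 carriers (0.60 and 0.42) or 15 regulators of mitochondrial biogenesis (-0.54 and -0.09). At an unadjusted p under 0.05 edgeR gave 3 and 2 assembly genes, 1 and 2 cycle genes, 1 and 1 carriers and 0 and 0 regulators, and DESeq2 called 1 assembly gene in cortex and 0 elsewhere in these lists. Of all genes in cortex, 7.91% were higher and 4.16% lower at that unadjusted level. The unadjusted share in hippocampus and the DESeq2 shares are not given here. The medians of the members, for comparison, were 0.85 and 0.63. Of the 13 mitochondrially encoded subunit genes 6 rose in cortex and 3 in hippocampus (7 and 7 in DESeq2), all 13 being above 0 in each, with medians of 1.19 and 1.52. In edgeR 1.23% of all genes passed in cortex and 0.551% in hippocampus, in either direction. Cytochrome b, mt-Cytb, stood at 3379 ± 202 (SD, n = 4) CPM in CD11c-positive and 1751 ± 217 (SD, n = 4) CPM in CD11c-negative cortex (log2 fold change 0.95 ± 0.16, SE; edgeR adjusted p = 0.0012).
Among 18 glycolysis genes 2 rose in cortex, Pkm and the glucose transporter Slc2a1, and 0 in hippocampus, with medians of 1.27 and 1.03. The shares of all genes past the threshold were again 1.23% and 0.551%. Pkm, pyruvate kinase, had 537 ± 93 (SD, n = 4) CPM against 122 ± 6 (SD, n = 4) CPM in cortex (log2 fold change 2.14 ± 0.40, SE; edgeR adjusted p = 0.0041). Slc2a1 was listed at 0 in all CD11c-negative cortex replicates. Of 14 antioxidant genes only Sod1, cytosolic superoxide dismutase, passed, in both regions.

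Members were also detected in more cells. After thinning to 5000 counts, a cell of CD11c-positive cortex had a count for 13.1 ± 3.0 members (SD, n = 4) on average, against 5.17 ± 1.28 (SD, n = 4) in CD11c-negative APP cortex and 5.61 ± 1.32 (SD, n = 4) in WT cortex. In hippocampus the means were 12.04 ± 2.6 (SD, n = 3), 5.84 ± 0.58 (SD, n = 4) and 3.10 ± 0.39 (SD, n = 4) in the same order of groups. As the plot of detected genes shows, all genes per cell were also higher in the CD11c-positive groups. They averaged 836 against 549 between the gates of APP cortex and 872 against 622 in APP hippocampus. How members per cell relate to all genes per cell across the 23 replicates was not computed.
Ndufa1 counts were found in 241 of 587 cells (41.1%; exact 95% interval 37.0 to 45.2%) from CD11c-positive cortex, in 40 of 454 (8.81%; 6.37 to 11.8%) from CD11c-negative cortex, and in 36.3% against 7.50% after thinning. In hippocampus the shares were 44.5% and 7.51%, or 31.2% and 4.65% after thinning. Cells of 1 animal are not independent, so these intervals cover counting error only.

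**Figure D5:**
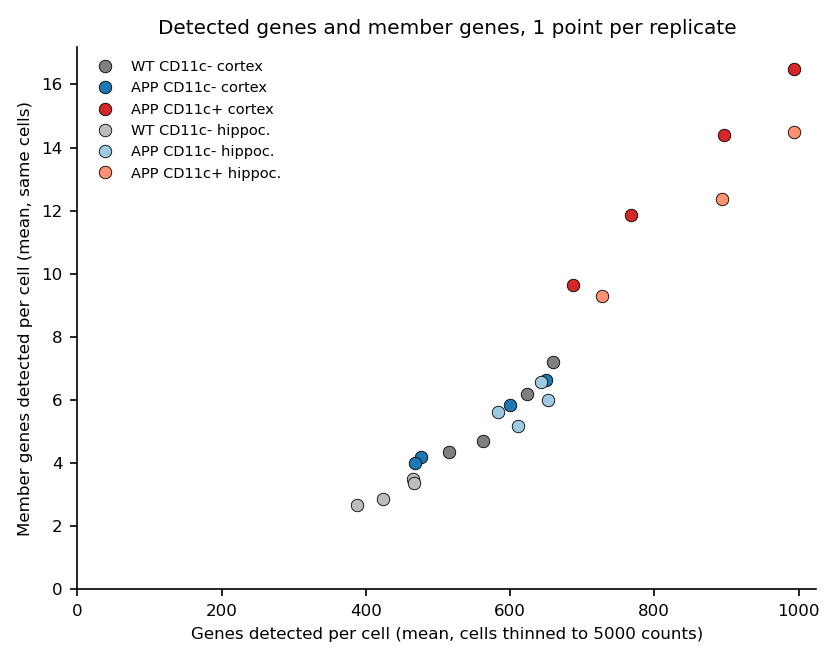
Mean number of members detected per cell (y axis) against mean number of all genes detected per cell (x axis), with each cell thinned to 5000 counts and 1 point per replicate. The 7 CD11c-positive replicates lie at the upper right, above 9 members per cell, and the 16 CD11c-negative replicates below 8.

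Shorter members had the larger gate differences. Spearman's rho between exon length and fitted log2 fold change over the 86 tested members was -0.39 in cortex and -0.42 in hippocampus, against -0.06 and -0.08 over all genes tested. Genes are not independent replicates, and short members also differ in level and share libraries, so this is a description. Members longer than the median of 1697 bases had a median fold change of 0.60 in cortex and 0.33 in hippocampus, and the shorter ones 1.17 and 0.81. Members are short as a group, with a median exon length of 1578 bases against 3876 over all genes tested. Shared sequence could split reads for a few members. Of the 50-base words, 64.1% of Ndufaf2, 41.6% of Atp5o, 38.4% of Atp5g2 and 22.1% of Cox7c occur in another annotated gene, while 40 of the 92 members share none.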

How the data were processed

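Raw counts per gene and cell were deposited by the authors as 1 table per library. Per the submitters' processing notes, UMI-tools 0.5.3, HISAT2 2.1.0, featureCounts 1.6.0 and the build GRCm38/mm10 were used. Merging of reads by molecule: not given in the sources used. Intervals of count ratios treat every count as independent, and without merging they may be too narrow. No interval covers the spread between animals. All 26348 gene IDs matched GENCODE vM21. Cells with under 200 genes (3) or over 20% mitochondrial counts (0) were removed, which left 2657 cells with a median of 19482 counts in 36 libraries (956491 to 2340598 counts each). No doublet caller was run. Of 83 distinct well barcodes 82 recur between libraries, and 0 cells were identical. Counts were summed into 23 replicates by animal, region and gate. Titles number the animals, and p-values measure the spread between these samples.

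The main test was edgeR 4.0.16 (R 4.3.3, limma 3.58.1) quasi-likelihood over all 6 groups with TMM scaling and Benjamini-Hochberg adjustment over 14892 genes, called at 0.05. A run on simulated data used a smaller spread between replicates and larger folds than the medians of the members here. It therefore does not show how the test performs on them. Alternatives were RLE scaling, no gene filter, DESeq2 1.42.0, genes per cell as covariate, removal of 123 cells with over 0.5% other-cell markers, cells with a count, the compared groups alone with and without a replicate block, the genotype tag, and leaving out each replicate. The marker-rich cells were 63 of CD11c-positive APP, 27 of CD11c-negative APP and 19 of WT cortex. In hippocampus they were 2, 1 and 11 in the same order. Between gates or regions the block is the animal, while between WT and APP it joins different animals by number alone. CPM of single genes used TMM library sizes, and sums used library totals. Thinning left out 73 cells under 5000 counts. Same-numbered replicates of the cortical gates come from the same animal by title, and their deviations correlated at 0.0481 to 0.0863. The highest correlation with another number was 0.0311 to 0.0735, and for replicate 1 it was above that of its own number. Between regions, CD11c-negative replicates of 1 animal correlated at -0.0534 to 0.0492.

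Genes named are every member past the threshold in a comparison, the 3 highest of each complex and of Ndufaf, all Sdh genes, families with alternative forms, the 7 core complex I genes, the called and up to 2 highest genes of each list, and Itgax. Others were chosen after their values were seen: members whose replicates did not overlap, and genomic neighbours. Members and lists were chosen with earlier results of these data known.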

Additional observations from a re-analysis of the deposited data

Results flagged for a closer look

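Of 140 groups of values checked, 12 held 1 replicate far from the others, and some such flags arise by chance. In APP CD11c-negative hippocampus these were Ndufa6 at 214 CPM, Cox6a2 at 69.6 CPM and the mitochondrially encoded sum at 5602 CPM. In APP CD11c-negative cortex they were Sdhc at 22.4 CPM and the complex I sum at 4809 CPM, and in APP CD11c-positive cortex the assembly factor sum at 303 CPM. In WT cortex they were Cox6a2 at 28.6 CPM, the complex II sum at 88.2 CPM and the mitochondrially encoded sum at 13070 CPM. In WT hippocampus they were Sdhc at 62.0 CPM, Sdhd at 0.564 CPM and Cox6a2 at 0.845 CPM, the last 2 beside replicates at 0.

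The genotype difference of Sdhd differed between regions by an interaction term, with a fitted log2 value of 7.79 (edgeR adjusted p = 0.0048). That value rests on a group with 2 counts and depends on the prior count of the fit.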

How the results depend on the processing

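No member past the threshold changed direction under an alternative that tested it. Counts of members called in the alternatives below stand without the share of all genes called in the same fit. They show how the calls move and are no result about the members. Genes per cell did not overlap between CD11c-positive and CD11c-negative replicates, so fits with that covariate can hardly separate it from the gate. With the genotype tag the cortical genotype differences of Ndufa6 and Cox7a2, not past the threshold, reversed to 0.5169 and -0.0913. Each side of the tag mixes WT and APP titles in both regions, so fits by tag do not compare the genotypes of the titles. Between the gates of APP cortex 2 members were called, and DESeq2 called 10, genes per cell as covariate 0, removal of cells rich in other-cell markers 1, cells with a count 19, the compared groups without a replicate block 13 and with it 9, and leaving out 1 replicate 0 to 2. The median was 0.7611 with no gene filter, 0.5408 for cells with a count, 1.0728 with the replicate block and 0.7511 to 0.9113 with 1 replicate left out. In hippocampus the main count of 1 became 4 in DESeq2, 0 with the covariate, 0 without marker-rich cells, 17 for cells with a count and 0 to 1 with 1 replicate left out. The median was 0.4323 with RLE, 0.4332 in DESeq2, 0.5291 with the covariate, 0.4085 for cells with a count and 0.5369 to 0.7109 with 1 replicate left out.

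For CD11c-positive APP against WT cortex the count of 4 became 2 with RLE, 0 with the covariate, 28 for cells with a count and 0 to 4 with 1 replicate left out, and the median was 0.5535 with the covariate. In hippocampus 4 became 7 in DESeq2, 0 with the covariate, 2 without marker-rich cells, 26 for cells with a count, 0 for the compared groups alone and 1 to 5 with 1 replicate left out. The median was 0.5948 with the covariate, 0.7054 for cells with a count and 0.8437 to 0.9803 with 1 replicate left out.

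For genotype in cortex DESeq2 called 2, and the median changed sign to 0.0883 for cells with a count and 0.1336 with the genotype tag. In hippocampus 1 became 3 for cells with a count, 0 for the compared groups with or without the replicate block, 0 with the tag and 1 to 3 with 1 replicate left out. The median was 0.2677 for cells with a count and 0.4659 with the replicate block, which joins WT and APP animals by number alone.

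For region in WT 1 became 6 in DESeq2, 0 for cells with a count, 0 for the compared groups with or without the replicate block and 1 to 3 with 1 replicate left out, and the median was -0.7904 with the block. In APP CD11c-negative cells DESeq2 called 5, cells with a count 3 and fits with 1 replicate left out 0 to 1. The median was -0.0849 with RLE, -0.0887 in DESeq2, -0.0328 without marker-rich cells, -0.0492 for cells with a count, -0.2901 with the replicate block and -0.3051 to 0.0019 with 1 replicate left out. In CD11c-positive cells DESeq2 called 2, cells with a count 1 and the compared groups alone 2, and the median was -0.3322 with the covariate, -0.0993 without marker-rich cells and -0.3379 to -0.1377 with 1 replicate left out. For genotype by region 1 became 2 in DESeq2, 0 with the covariate, 0 for cells with a count, 0 for the compared groups alone and 1 to 2 with 1 replicate left out. The low-count filter removed Sdhd from the fits on cells with a count (both hippocampal comparisons with WT, region in WT, genotype by region) and, for genotype in hippocampus, from the compared-groups and tag fits, so counts there hold no test of it. The cause of the other shifts was not tested.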
